A study of Mus musculus with 6 samples.

Results

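Corticothalamic neurons occupy layer 6 of the cerebral cortex and send their axons to the thalamus, where they adjust sensory relay. Their identity is set during embryonic life by transcription factors, among them Tbr1, which favours corticothalamic over subcerebral fate and represses Fezf2. Tle4, a Groucho-family co-repressor that binds no DNA itself, is present in the same neurons and is widely used as their marker. The 10 genes described here are 3 regulators found in corticothalamic neurons (Tbr1, Foxp2 and Zfpm2) and 7 of their markers (Syt6, Ntsr1, Sla, Crym, Thsd7b, Rprm and Ppp1r1b). They were chosen by name, with earlier results of these data known. All 10 had a row among the 23621 genes of the deposited table and passed the filter on low counts.

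RNA was sequenced from the cortex of Tle4-/- null mice (3 libraries) and of wild-type littermates (3 libraries), all taken on postnatal day 0. Both genotypes share a mixed strain background of C57BL/6J, 129S6 and CD1. The labels do not say how the null allele was made, which litter a library came from, or whether animals were pooled, so the p-values measure only the spread between these libraries. Whole cortex was used, and fewer corticothalamic neurons and less RNA per neuron cannot be told apart in such samples.

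The libraries held 18617408 to 21632607 counts. Tle4 itself stood at 69.3, 86.8 and 86.8 CPM (a count scaled to library size, with TMM factors) in the mutant libraries, against 198, 142 and 166 CPM in the wild-type libraries, and fell to 48.0% of the wild-type mean (edgeR adjusted p = 0.0377). Leaving out wild-type replicate 2 kept that call (0.0306), and leaving out any other library lost it (0.0784 to 0.162). It was also lost with limma-voom (adjusted p = 0.0646) and, in edgeR, without mitochondrial, X-linked and Y-linked genes (adjusted p = 0.0532). The DESeq2 Wald test gave Tle4 an adjusted p of 5.33e-08, and the authors' deposited table gave 2.56e-06. Xist, which is made in females, had 66194 to 79080 counts in the mutants and 11 to 37 in the wild types. The Y-linked gene Ddx3y reached 74.5 and 84.9 CPM in wild-type replicates 1 and 2 and stayed at or below 0.108 CPM in wild-type replicate 3 and in every mutant, so sex and genotype cannot be told apart in these libraries. Wild-type replicate 3, with 37 Xist counts, had neither the Xist level of the mutants nor the Y-linked level of the other wild types. The cortical glutamatergic genes Neurod2, Neurod6, Slc17a7, Emx1 and Bhlhe22 were present in every library, and none of them passed the edgeR test at an adjusted p under 0.05.

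The 10 genes divided into 3 that were lower in every mutant library and 7 whose genotypes overlapped. Zfpm2, Foxp2 and Syt6 stood at 56.6%, 59.5% and 63.4% of their wild-type means, whereas Tbr1 stood at 94.9% and Rprm at 101%. None of the 10 passed the threshold of an edgeR adjusted p under 0.05 over the 16274 genes tested, at which 0.0614% of all genes were called lower and 0.0492% higher. At an unadjusted p under 0.05, edgeR gave 3 members lower and 1 higher, beside 1.73% and 1.71% of all genes. The DESeq2 Wald test called 2 members lower (Foxp2 and Zfpm2) and 0 higher, where its shares over all genes were 0.227% and 0.129%. With limma-voom 0 were called in either direction, where the shares were 0.043% and 0.0369%. The authors' deposited table has the same 2 members under 0.05, both lower, beside 0.182% of its genes. Complete separation with the mutants below was seen in 3.75% of all genes and with the mutants above in 4.18%. Since the members were chosen with earlier results known, setting them beside these shares is no test of the list. The 10 log2 fold changes had a median of -0.02, beside -0.01 over all genes tested, with 5 below 0 and 5 above.

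**Figure D1:**
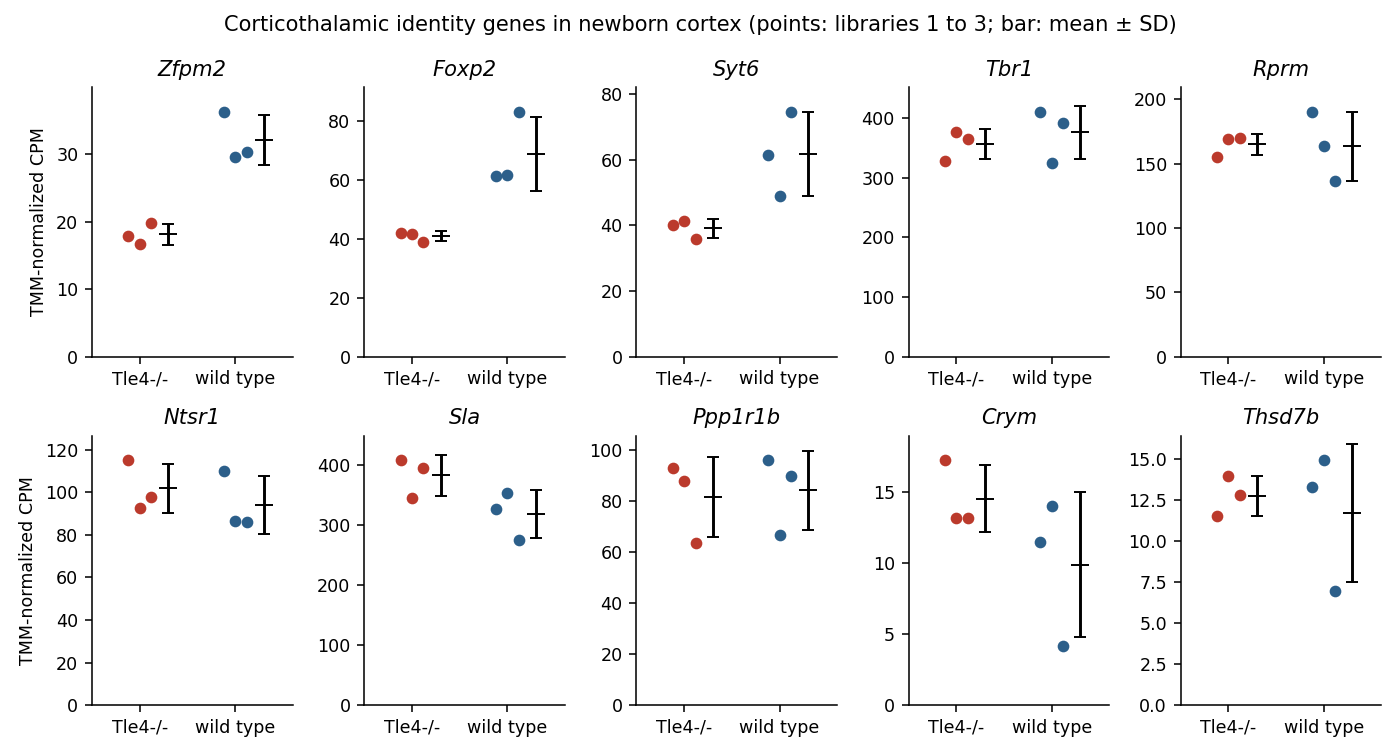
TMM-normalized CPM (vertical axis, from 0) of the 10 corticothalamic genes in the Tle4-/- libraries (red) and wild-type libraries (blue), with the mean and SD of 3 libraries as a bar. Red points lie below all blue points in the panels of Zfpm2, Foxp2 and Syt6 and mix with them in the other 7.

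Among the regulators, Zfpm2 (Fog2), a zinc-finger cofactor of GATA factors that marks corticothalamic neurons, had 17.8, 16.7 and 19.8 CPM in the mutant libraries, against 36.3, 29.6 and 30.3 CPM in the wild-type libraries. Every mutant library lay below every wild-type library. The log2 fold change was -0.82 (SE 0.14, 95% interval -1.14 to -0.50) and the edgeR adjusted p was 0.121. The DESeq2 Wald test gave an adjusted p of 0.000128, and the p adjusted by the authors in their deposited table was 0.0292. The gene (ENSMUSG00000022306) runs along chromosome 15 from 40655042 to 41104592 on GRCm38, and GENCODE M21 lists no exon of another gene over its exons.

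Foxp2, a forkhead repressor of transcription expressed in layer 6 and also in striatal projection neurons, had 42.0, 41.7 and 39.0 CPM in the mutants, against 61.3, 61.6 and 83.1 CPM in the wild types. The mutant libraries were tightly grouped, while wild-type replicate 3 stood well above the other two. Its log2 fold change was -0.75 (SE 0.14, 95% interval -1.06 to -0.44), with an edgeR adjusted p of 0.173. Without wild-type replicate 3 the log2 fold change was -0.59 (edgeR adjusted p = 0.269). By the DESeq2 Wald test the adjusted p was 0.00139, and in the authors' deposited table it was 0.0139. Foxp2 (ENSMUSG00000029563) spans 14901349 to 15441977 on chromosome 6.

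Tbr1, the T-box factor that directs corticothalamic fate, had 328, 377 and 366 CPM in the mutants, against 411, 325 and 392 CPM in the wild types. The genotypes overlapped, and a wild-type library was the lowest of the 6. Its mean was 357 ± 25.6 CPM in the mutants and 376 ± 45.1 CPM in the wild types (SD, n = 3 each). The fold change of 0.949 had a 95% interval of 0.801 to 1.124, which leaves out the values estimated for Zfpm2 (0.566), Foxp2 (0.595) and Syt6 (0.634). The 95% intervals of those genes were 0.454 to 0.705, 0.479 to 0.739 and 0.497 to 0.810, in the same order. Only that of Syt6 overlaps the interval of Tbr1. Tbr1 (ENSMUSG00000035033) is found on chromosome 2 from 61802930 to 61814114.

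Of the markers, Syt6, a synaptotagmin of layer 6 neurons, had 40.2, 41.2 and 35.7 CPM in the mutants, against 61.4, 48.9 and 74.5 CPM in the wild types. The genotypes did not overlap, but the gap was narrower than for Foxp2 and Zfpm2, since wild-type replicate 2 lay closest to the mutants. The log2 fold change was -0.66 (SE 0.16, 95% interval -1.01 to -0.30) and the edgeR adjusted p was 0.544. Leaving out wild-type replicate 3 gave -0.50, and leaving out wild-type replicate 2 gave -0.80. DESeq2 gave an adjusted p of 0.0542, short of the threshold, and the value in the authors' deposited table was 0.152. Syt6 (ENSMUSG00000027849) runs from 103575231 to 103645569 on chromosome 3. It shares 505 exon bases with Atg4a-ps on the other strand, a row with only 27 to 45 counts per library.

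Syt6 is the one gene of the 3 for which a RefSeq promoter (GRCm38.p6) was used, and Ntsr1, which overlapped between the genotypes, is set beside it. The 2 windows are shown because they are the member promoters that hold the letters AGGTGT, the core of the site that T-box factors such as Tbr1 recognise. Each window covers 250 bases before to 50 bases after a start site on the plus strand, written 5′ to 3′, and capitals mark that core or its reverse complement ACACCT. Syt6 comes from chr3:103574995-103575294 and Ntsr1 from chr2:180499726-180500025.
Syt6: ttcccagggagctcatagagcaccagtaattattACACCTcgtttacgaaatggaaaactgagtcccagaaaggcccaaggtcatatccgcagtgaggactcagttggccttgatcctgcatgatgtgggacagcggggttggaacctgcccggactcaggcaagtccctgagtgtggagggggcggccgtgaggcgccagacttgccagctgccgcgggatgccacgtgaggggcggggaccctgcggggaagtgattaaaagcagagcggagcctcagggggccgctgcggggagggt
Ntsr1: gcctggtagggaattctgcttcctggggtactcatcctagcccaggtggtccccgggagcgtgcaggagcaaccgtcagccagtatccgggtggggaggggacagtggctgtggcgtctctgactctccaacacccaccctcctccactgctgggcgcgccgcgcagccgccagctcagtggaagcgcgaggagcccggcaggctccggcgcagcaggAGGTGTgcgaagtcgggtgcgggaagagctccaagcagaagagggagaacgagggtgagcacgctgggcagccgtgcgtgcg
In Syt6 the core starts at position -216 from the start site, in the reverse orientation, and in Ntsr1 at position -32, in the forward orientation. The other 2 listed start sites of Syt6, and the promoters of Tbr1, Rprm and Thsd7b, hold no AGGTGT on either strand in their windows. Of those 2 Syt6 windows, chr3:103575032-103575331 opens inside the same ACACCT and so holds only its end. It shares most of its bases with the Syt6 window shown, so the windows are not independent. In all, 2 of 7 windows of 5 members hold the core, beside 13.7% of the 32851 mouse promoters of the same length. Both windows are rich in G and C, at 61.0% in Syt6 and 68.0% in Ntsr1, with 16 and 23 CpG pairs, beside medians of 52.7% and 7 over all promoters. A match is a description of letters and no evidence of binding.

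Ntsr1, the neurotensin receptor whose regulatory sequence drives Cre in layer 6 corticothalamic neurons of a widely used mouse line, had 115, 92.7 and 97.8 CPM in the mutants, against 109.9, 86.5 and 86.1 CPM in the wild types. Each genotype held 1 high library, and the ranges overlapped. The fold change was 1.08, with a 95% interval of 0.879 to 1.33. Ntsr1 (ENSMUSG00000027568) lies at 180499976 to 180544980 on chromosome 2.

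Rprm (reprimo), a p53-responsive inhibitor of the cell cycle used as a layer 6 marker, had 155, 169 and 169.8 CPM in the mutants, against 190.3, 164 and 136 CPM in the wild types. The mutants lay inside the wild-type range. Means were 165 ± 8.18 CPM in the mutants and 163 ± 27.0 CPM in the wild types (SD, n = 3 each), a fold change of 1.01 with a 95% interval of 0.830 to 1.23. The gene (ENSMUSG00000075334) is a short one, on chromosome 2 from 54084093 to 54085552.

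Sla, an adaptor protein that dampens receptor signalling, was the marker nearest to the opposite pattern. It had 407, 344 and 395 CPM in the mutants, against 326, 353 and 275 CPM in the wild types. A single wild-type library, replicate 2, lay above the lowest mutant. The log2 fold change was 0.27 (SE 0.11, 95% interval 0.01 to 0.52) with an unadjusted edgeR p of 0.0424, which did not pass after adjustment over all genes. In the authors' deposited table the p before adjustment was 0.0916. Without wild-type replicate 3 the log2 fold change was 0.17. Sla (ENSMUSG00000022372, chromosome 15 from 66780819 to 66831829) lies opposite Tg, whose exons it does not share and which had 6 to 13 counts.

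Ppp1r1b (DARPP-32), the phosphatase inhibitor that integrates dopamine signals in striatal neurons and is also present in layer 6, had 93.2, 88.0 and 63.6 CPM in the mutants, against 96.0, 66.7 and 90.0 CPM in the wild types. Each genotype held 1 low library, and the means of 81.6 CPM in the mutants and 84.3 CPM in the wild types differed by far less than the spread. Its fold change of 0.969 had a 95% interval of 0.731 to 1.28. Ppp1r1b (ENSMUSG00000061718, chromosome 11 from 98348404 to 98357796) shares 460 exon bases with 1700003D09Rik on the other strand, which had 14 to 31 counts.

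The last 2 markers were low, and their estimates moved most with wild-type replicate 3. Crym, a thyroid hormone-binding crystallin, had 17.2, 13.2 and 13.2 CPM in the mutants, against 11.5, 14.0 and 4.19 CPM in the wild types. Thsd7b, a thrombospondin-domain membrane protein, had 11.6, 14.0 and 12.8 CPM in the mutants, against 13.3, 14.9 and 6.99 CPM in the wild types. Wild-type replicate 3 was the lowest of all 6 libraries for both genes, with 78 counts of Crym and 130 of Thsd7b. The log2 fold change of Crym was 0.55 (95% interval -0.36 to 1.47) with all libraries, 0.19 without that one and 0.89 without wild-type replicate 2. For Thsd7b it was 0.12 (95% interval -0.48 to 0.72), and -0.15 without that library. Crym (ENSMUSG00000030905) spans 120186380 to 120202111 on chromosome 7, and Thsd7b (ENSMUSG00000042581) spans 129273302 to 130219278 on chromosome 1.

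**Figure D2:**
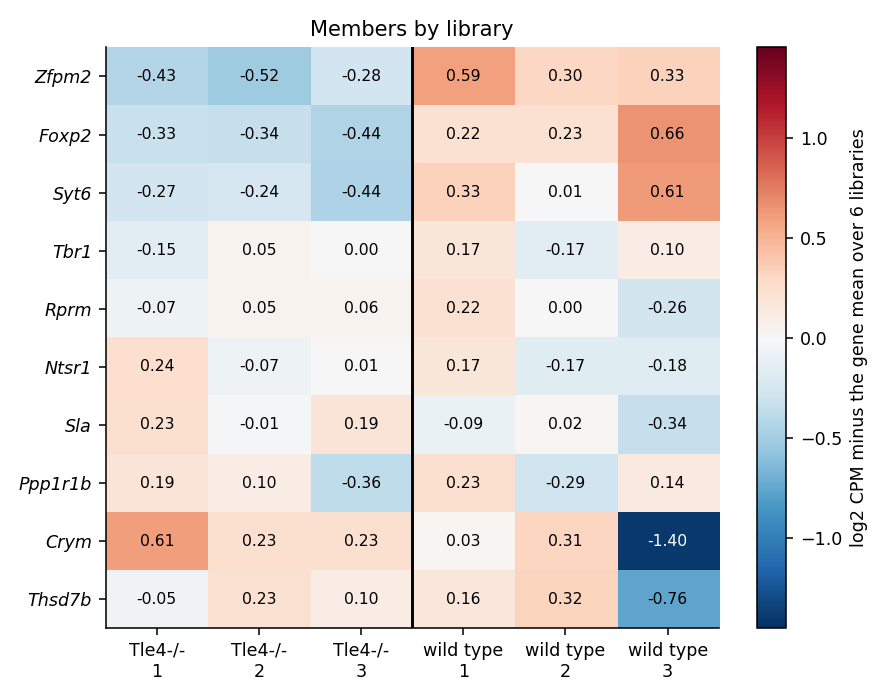
Log2 CPM of each member (rows) in each library (columns, Tle4-/- left of the line, wild type right of it) after subtracting the gene's mean over the 6 libraries, so that red is above and blue below that mean. The upper 3 rows are blue in every mutant library, and wild-type replicate 3 shows the lowest value of Crym at -1.40 and of Thsd7b at -0.76 beside the highest of Foxp2 and Syt6.

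Wild-type replicate 3 also stood apart over the whole set. It was the lowest of the 6 libraries for 5 members (Ntsr1, Sla, Crym, Thsd7b and Rprm) and the highest for Foxp2 and Syt6. It is the library nearly without both Xist and Y-linked transcripts, and the part of that in these values was not tested. In pattern over the 6 libraries, Foxp2 and Syt6 were the closest pair of members, with a root mean square difference of 0.112 in centred log2 CPM. Foxp2 and Zfpm2 differed by 0.231, Zfpm2 and Syt6 by 0.245, and Foxp2 and Tbr1 by 0.372. Among 10296 other genes of at least 10 CPM, the 3 closest to Foxp2 were Syt6, Grik4, a kainate receptor subunit (0.120), and Tmem28 (0.122). Grik4 had a mean of 19.1 ± 1.07 CPM in the mutants and 28.8 ± 6.19 CPM in the wild types (SD, n = 3 each). Closest to Zfpm2 were Tgfa, a ligand of the EGF receptor (0.0789), Hs3st4 (0.128) and Nos1, the neuronal nitric oxide synthase (0.170). Tgfa had 38.9, 39.1 and 41.5 CPM in the mutants, against 80.3, 58.3 and 62.2 CPM in the wild types, and Nos1 averaged 115 ± 5.54 CPM in the mutants and 174 ± 28.5 CPM in the wild types (SD, n = 3 each). None of these genes passed the edgeR threshold, the smallest adjusted p being 0.0522 for Hs3st4, and they were picked for their likeness in these same libraries.

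Setting each member against Tbr1 within its own library removes the scaling between libraries. The ratio of Zfpm2 to Tbr1, in FPKM (the deposited level per kilobase of gene, scaled to the library total), was 7.50%, 6.13% and 7.48% in the mutants, against 12.2%, 12.6% and 10.6% in the wild types. Foxp2 stood at 3.53%, 3.05% and 2.94% of Tbr1 in the mutants, against 4.12%, 5.23% and 5.85% in the wild types. Syt6 stood at 7.69%, 6.86% and 6.13% in the mutants, against 9.37%, 9.43% and 11.9% in the wild types. For these 3 genes the genotypes stayed apart, at 0.597, 0.627 and 0.673 times the wild-type ratio (exact 2-sided permutation p = 0.1 each, the smallest that 3 libraries against 3 allow). The other 6 ratios overlapped, at 1.03 times for Ppp1r1b to 1.51 times for Crym, with exact permutation p from 0.3 to 0.9. Without wild-type replicate 2 the log2 ratios of Sla, Crym and Thsd7b were 0.53, 1.09 and 0.51, against 0.33, 0.60 and 0.16 with all libraries, and each had an exact permutation p of 0.2, the smallest that 3 libraries against 2 allow. Without wild-type replicate 3 they were 0.20, 0.21 and -0.13. Such ratios were compared for 9 genes, and none can pass a threshold of 0.05 in this design.

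**Figure D3:**
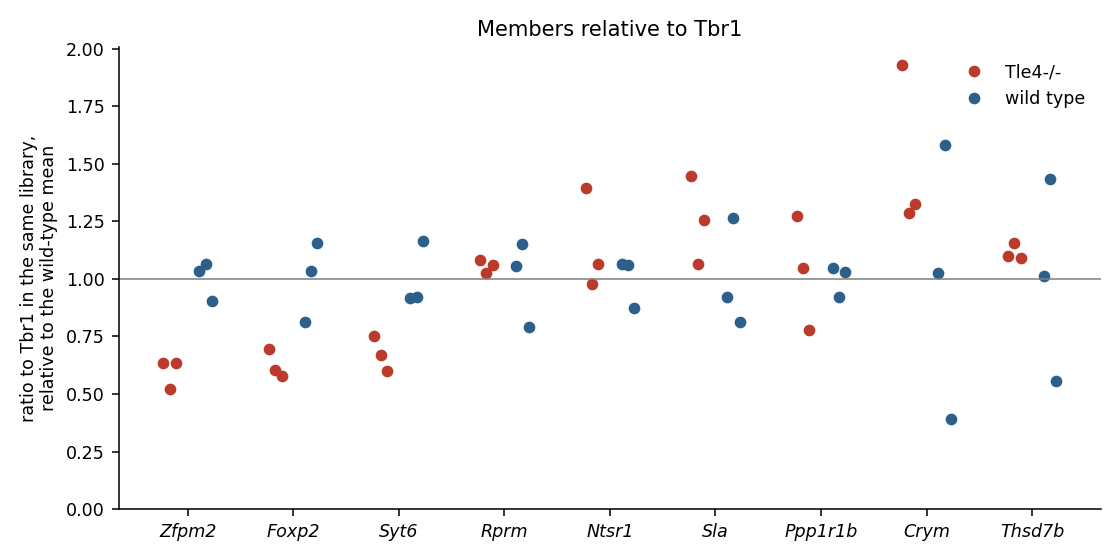
Ratio of each member to Tbr1 in the same library (vertical axis), divided by the mean of the wild-type ratios so that 1 is the wild-type mean, in Tle4-/- (red) and wild-type (blue) libraries. The red points of Zfpm2, Foxp2 and Syt6 lie below their blue points, and those of the other 6 genes mix.

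Per length, the wild-type order of the deposited levels was Rprm, Tbr1, Sla, Ppp1r1b, Ntsr1, Zfpm2, Syt6, Crym, Foxp2 and Thsd7b. Rprm averaged 112 ± 5.51 FPKM in the mutants and 112 ± 17.5 FPKM in the wild types, and Tbr1 51.7 ± 3.73 FPKM in the mutants and 54.9 ± 5.32 FPKM in the wild types (SD, n = 3 each). At the low end, Foxp2 averaged 1.63 ± 0.0721 FPKM in the mutants and 2.77 ± 0.499 FPKM in the wild types, and Thsd7b 0.862 ± 0.0828 FPKM in the mutants and 0.801 ± 0.295 FPKM in the wild types (SD, n = 3 each). Neighbours in this order were separated in every wild-type library except Ppp1r1b and Ntsr1, Zfpm2 and Syt6, and Crym and Foxp2. In the mutants the order was Rprm, Tbr1, Sla, Ntsr1, Ppp1r1b, Crym, Zfpm2, Syt6, Foxp2 and Thsd7b, and neither Ntsr1 from Ppp1r1b nor Crym, Zfpm2 and Syt6 from each other were separated in every library. Crym thus ranked 6 in the mutants and 8 in the wild types, while Zfpm2 ranked 7 in the mutants and 6 in the wild types. With CPM per kilobase of GENCODE exons in place of FPKM, a choice made after seeing the data, the upper 5 wild-type places were the same, and Syt6, Foxp2, Zfpm2 and Crym took places 6 to 9.

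Beyond the 10 genes, 11 other genes linked to corticothalamic or layer 6 identity had a row and were tested (a list chosen with earlier results of these data known). None passed the edgeR threshold, the median log2 fold change was -0.22, and 8 of the 11 were negative, where 51.3% of all genes tested were. At an unadjusted edgeR p under 0.05, 2 were lower and 1 higher, beside 1.73% and 1.71% of all genes. DESeq2 called 2 lower and 0 higher, beside 0.227% and 0.129% of all genes. Hs3st4, a heparan sulfate sulfotransferase, had 64.2, 62.7 and 57.9 CPM in the mutants, against 136, 98.6 and 111 CPM in the wild types (log2 fold change -0.90, edgeR adjusted p = 0.0522). With DESeq2 size factors, with no filter beyond 1 count and without wild-type replicate 2 its edgeR adjusted p was 0.0493, 0.0151 and 0.0390, past the threshold. Nxph3, a secreted ligand of neurexins, had 13.3, 19.99 and 20.4 CPM in the mutants, against 70.4, 43.1 and 46.3 CPM in the wild types (log2 fold change -1.58, edgeR adjusted p = 0.0789). Its 3 mutant libraries were well below all wild-type libraries. The DESeq2 Wald test gave adjusted p of 1.0e-06 for Hs3st4 and 2.38e-08 for Nxph3. In the authors' deposited table the adjusted p was 8.88e-05 for Hs3st4 and 2.78e-07 for Nxph3.

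Fam84b ran the other way among these genes, with 77.7, 75.8 and 53.7 CPM in the mutants, against 50.01, 44.1 and 38.0 CPM in the wild types (log2 fold change 0.65, edgeR adjusted p = 0.668). All its mutant libraries were above all wild types. Grik3, a kainate receptor subunit of layer 6, gave a log2 fold change of -0.21 (95% interval -0.43 to 0.01). Sox5, which holds back subcerebral fate in early deep-layer neurons, averaged 197 ± 38.0 CPM in the mutants and 206 ± 17.7 CPM in the wild types (SD, n = 3 each), with a 95% interval of the fold change from 0.773 to 1.19.

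**Figure D4:**
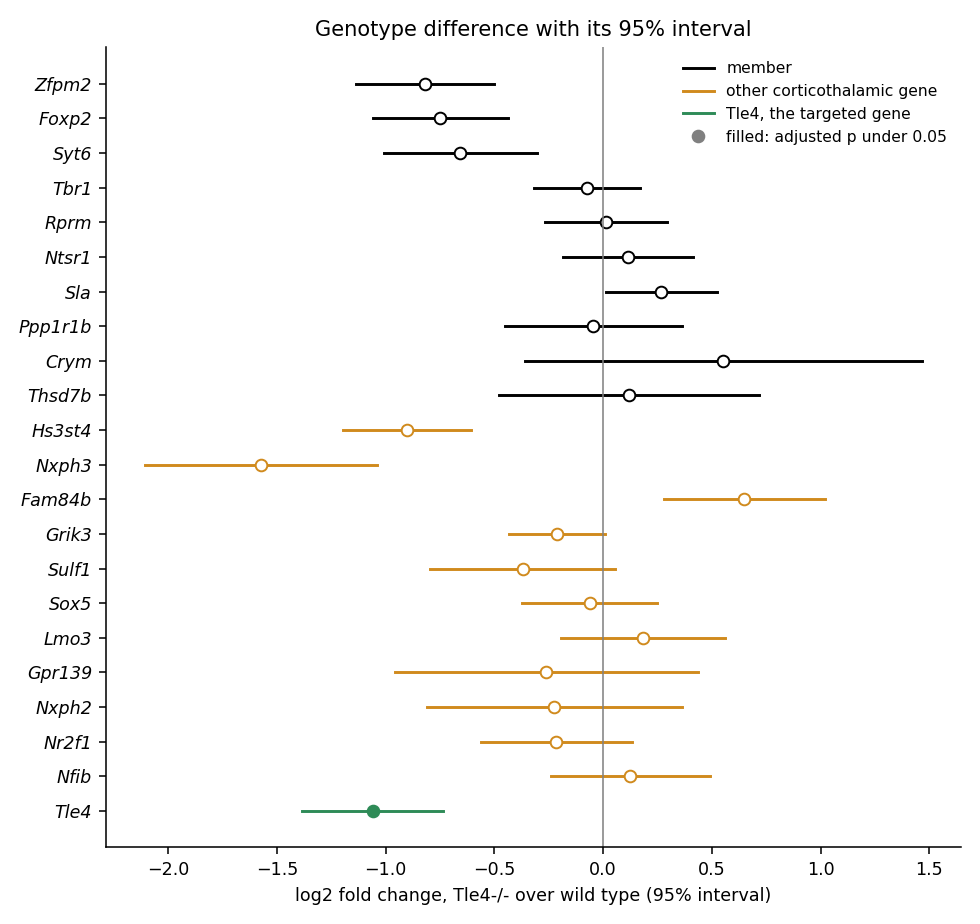
Log2 fold change of Tle4-/- over wild type (horizontal axis) with its 95% interval for the 10 members (black), 11 other corticothalamic genes (orange) and Tle4 (green). Filled points mark an edgeR adjusted p under 0.05, which only Tle4 has here, and the intervals of Zfpm2, Foxp2 and Syt6 lie wholly below 0.

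Genes reported as targets of Tbr1 were read out because Tbr1 itself overlapped between the genotypes (a list chosen with earlier results of these data known). Of 7 tested, 1 was called higher by edgeR, beside 0.0492% of all genes tested. That gene was Fezf2, the subcerebral fate factor that Tbr1 represses. It had 173, 140 and 175 CPM in the mutants, against 77.9, 61.9 and 57.2 CPM in the wild types (log2 fold change 1.31, SE 0.14, edgeR adjusted p = 0.0117). Without mutant replicate 3 that call was lost (edgeR adjusted p = 0.0628). By the DESeq2 Wald test the adjusted p of Fezf2 was 2.97e-13, and in the authors' deposited table it was 2.62e-10. The other 6 reported targets overlapped. Reln, the secreted guide of neuronal layering, averaged 455 ± 34.8 CPM in the mutants and 453 ± 67.4 CPM in the wild types (SD, n = 3 each). Ntng1, an axonal netrin-G, and Cdh8, a cadherin, gave log2 fold changes of 0.14 and -0.05. Grin2b, an NMDA receptor subunit, gave 0.11, Auts2, a neurodevelopmental regulator, -0.09, and Bcl11b, a subcerebral factor, -0.07. The 95% intervals of these last 3 were -0.11 to 0.34, -0.47 to 0.30 and -0.35 to 0.21.

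Foxp2 and Ppp1r1b are also made by striatal neurons, and striatal transcripts differed between these libraries. The summed level of 17 striatal markers was 570.2, 453 and 492 CPM in the mutants, against 649, 607 and 797 CPM in the wild types, with no overlap and no marker at 0. The median log2 fold change of the 17 was -0.60, and 16 were negative, where 51.3% of all genes tested were. By edgeR, 1 of the 17 passed the threshold, as lower, beside 0.0614% of all genes tested. The striatal list was also chosen with earlier results known. Ebf1, a factor of striatal projection neurons, had 9.07, 9.21 and 9.23 CPM in the mutants, against 24.9, 15.6 and 32.0 CPM in the wild types (edgeR adjusted p = 0.134). Drd2 gave a log2 fold change of -1.24 (edgeR adjusted p = 0.255), Ikzf1 -1.39 and Drd1, a dopamine receptor of the direct pathway, 0.01. Their part in the Foxp2 values was not tested. Thalamic markers overlapped, at a summed 96.0 to 131 CPM in the mutants and 97.0 to 123 CPM in the wild types, with Gbx2, a defining thalamic factor, at 0.0521 to 0.262 CPM in the mutants and 0.0509 to 0.359 CPM in the wild types. Meningeal markers overlapped too, at 191 to 404 CPM in the mutants and 13.3 to 496 CPM in the wild types, the lowest being wild-type replicate 1.

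Subplate neurons lie just beneath layer 6 and share many of its genes. Of 7 subplate markers, Ctgf fell, with 6.03, 9.26 and 6.31 CPM in the mutants, against 23.0, 23.5 and 22.8 CPM in the wild types (log2 fold change -1.68, edgeR adjusted p = 0.0145). That call was lost on leaving out, in turn, mutant replicate 1, mutant replicate 3, wild-type replicate 2 and wild-type replicate 3 (edgeR adjusted p = 0.0567, 0.110, 0.0506 and 0.0748). By the DESeq2 Wald test the adjusted p of Ctgf was 9.48e-13, and in the authors' deposited table it was 1.63e-07. Cplx3, a complexin, gave -1.80 (edgeR adjusted p = 0.378), Nxph4, a neurexophilin, -0.89 (0.731), and Tmem163 -0.13. Over the 7, 5 log2 fold changes were below 0 and 2 above (Nr4a2 0.01 and Moxd1 0.17), with a median of -0.16. Only Ctgf passed the edgeR threshold, at which 0.0614% of all genes tested were called lower. These 7 markers, too, were chosen with earlier results known. The summed level of the 7 was 123 to 175 CPM in the mutants and 168 to 182 CPM in the wild types. Nr4a2 made up most of it, at 82.5 to 133 CPM in the mutants and 92.8 to 110 CPM in the wild types.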

How the data were processed

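The members and gene lists were chosen with earlier results of these data known. The authors deposited 1 gene table, which per the file headers holds a whole-number count and an FPKM value per gene and library, with the p-value of their own comparison before and after adjustment. Per the submitters' processing notes the tools were HISAT2 2.0.4, StringTie and edgeR, on GRCm38.p4 (mm10). Which program counted reads, on which annotation and whether by strand, is not given in the sources used here. In 13814 genes with at least 20 counts in every library, the deposited FPKM equalled the count over the library total over a fixed length, within 1%.

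Counts were tested with edgeR 4.0.16 in R 4.3.3: filterByExpr, TMM factors, a robust quasi-likelihood fit of genotype alone, 2-sided, with Benjamini-Hochberg adjustment over 16274 genes and a threshold of 0.05. Fold changes are mutant over wild type, the SE is the size of the log2 fold change divided by the root of F, and the 95% interval uses the t quantile of the test. CPM are TMM-normalized. Lists were described by counts and medians. Alternatives used DESeq2 1.42.0 and limma 3.58.1 (voom). The steps were tested on simulated counts. Named genes were the 10 members, Tle4, up to 4 genes of smallest p per list, and the 3 genes closest in centred log2 CPM (prior count 2) to Foxp2 and to Zfpm2. Some results this rule takes are not reported here, and Sox5, Reln, Auts2, Cdh8 and Drd1 were chosen after their values were seen. Gene overlaps and exon lengths are from GENCODE M21, promoters from RefSeq (GRCm38.p6).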

Additional observations from a re-analysis of the deposited data

How the results depend on the processing

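Foxp2, Zfpm2, Syt6, Tbr1, Ntsr1, Sla and Crym kept the sign of their log2 fold change under all 14 alternatives, as did Tle4. With the DESeq2 Wald test, 37 genes were called lower and 21 higher, with 2 members and 2 other corticothalamic genes lower, and the log2 fold changes of Foxp2 and Zfpm2 (-0.75 and -0.83) passed the threshold. One other corticothalamic gene, Hs3st4, was called lower with DESeq2 size factors and with no filter beyond 1 count. Without mitochondrial, X-linked and Y-linked genes 3 genes were called higher, and Tle4 lost the call (edgeR adjusted p = 0.0532), as it did with limma-voom (adjusted p = 0.0646). Same-numbered libraries of the 2 genotypes did not deviate together (correlations of deviations -0.06, 0.10 and -0.02). With 3 libraries per genotype, these correlations cannot show whether the numbers pair the libraries. With a replicate block 4 genes were called lower and 5 higher, and Tle4 (edgeR adjusted p = 0.207) and Ctgf (0.0504) lost the call. Leaving out 1 library at a time, genes called lower ranged from 4 to 12 and genes called higher from 4 to 8, the lowest of both without mutant replicate 3. Other corticothalamic genes called lower then ranged from 0 to 1, and reported Tbr1 targets called from 0 to 1. Members separated with the mutants above ranged from 0 to 2, and members separated with the mutants below from 3 to 4. Complete separation is easier to reach with a library fewer, and its share over all genes was not computed there. In the same fits the log2 fold change ranged from -0.82 to -0.59 for Foxp2, -0.89 to -0.72 for Zfpm2, -0.80 to -0.50 for Syt6, 0.19 to 0.89 for Crym, -0.15 to 0.33 for Thsd7b, -0.10 to 0.14 for Rprm and -0.19 to 0.11 for Ppp1r1b. That of Tle4 ranged from -1.17 to -0.93, with edgeR adjusted p from 0.0306 to 0.162. Log2 ratios to Tbr1 ranged from -0.13 to 0.22 for Ppp1r1b, -0.13 to 0.51 for Thsd7b, -0.065 to 0.19 for Rprm, 0.20 to 0.53 for Sla and 0.21 to 1.09 for Crym. Ppp1r1b gave -0.042 with glutamatergic genes as the denominator. With a 7-letter core (AGGTGTG), 1 member promoter matched in place of 2. The causes were not tested.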

Other observations

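The length implied by the deposited count and FPKM was 24.9 kb for Foxp2, 10.9 kb for Syt6 and 4.97 kb for Zfpm2, beside 16.3, 5.83 and 9.54 kb of merged exons in GENCODE M21. For Rprm both lengths were 1.46 kb. Fold changes of 1 gene between genotypes do not depend on this length, whereas the order of levels between genes does.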
